A study of Arabidopsis thaliana with 6 samples.

Results

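HRS1 (AT1G13300), HHO1 (AT3G25790), HHO2 (AT1G68670) and HHO3 (AT1G25550) encode GARP-family transcriptional repressors of Arabidopsis thaliana, and the binding of the transcription factor NLP2 around these 4 genes, of 27444 nuclear protein-coding genes, was examined by chromatin immunoprecipitation followed by sequencing (ChIP-seq). Every peak was taken whose summit, the position of highest signal, lay inside the gene or within 5000 bp of either end. This gave 8 of the 593 peaks listed after nitrate and 0 of the 579 peaks listed without it.

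The study followed NLP2-GFP, made from the NLP2 promoter in the nlp2-2 mutant of the Col-0 accession, with antibodies against GFP. Seedlings labelled as 14 days old had grown for 10 days with 3 mM KNO3 and had then been kept for 3 days without nitrogen. In the T30 group the medium was replaced by 3 mM nitrate for 30 min, and in the T0 group by fresh nitrogen-free medium. Both groups carry the same mutation and the same construct, whole seedlings were used, and the labels do not say how many transgenic lines were studied. Each time had 2 immunoprecipitated (IP) libraries and 1 input library of unprecipitated DNA, and the authors gave 1 IP peak list per time from pooled replicates. No peak therefore has a value per replicate or an error, read depth is unknown, and no test between the times was made.

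NLP proteins are nitrate-responsive activators: nitrate brings them into action in the nucleus, where they switch on genes of nitrate uptake and assimilation and genes for further regulators. Among the regulators that nitrate induces quickly are HRS1 and its homologs, also called NIGT1 proteins. They repress genes such as the high-affinity nitrate transporter gene NRT2.1 and take part in the crosstalk between nitrogen and phosphate supply. HRS1 takes its name from the shortening of the primary root at low phosphate.

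All 4 genes had T30 peaks and none had a T0 peak. HHO3 had the strongest ones, with a fold of 6.92 on one side of the gene and 5.58 on the other. HRS1 had peaks of 4.42 and 2.48, again on opposite sides, and HHO1 had a single peak of 3.82. HHO2 had the most peaks, 3 in number, with folds of 2.19 to 2.83, so its strongest peak was the lowest among the strongest peaks of the 4 genes. The fold is the authors' ratio of a peak's signal over local background and is read here only within one list. Any T30 summit in the same window was found for 5.41% of all protein-coding genes, so 4 of 4 stands well above the background share, although the genes were chosen with results of these data known. With a limit of 1000 bp, HHO2 and HHO3 alone had a peak (2 of 4, against 1.91% of all genes), and with each summit given only to the nearest gene HHO1 had none (3 of 4, against 1.71%). A T0 summit within 5000 bp was found for 3.76% of genes, a share at which 0 of 4 is close to the background.

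**Figure D1:**
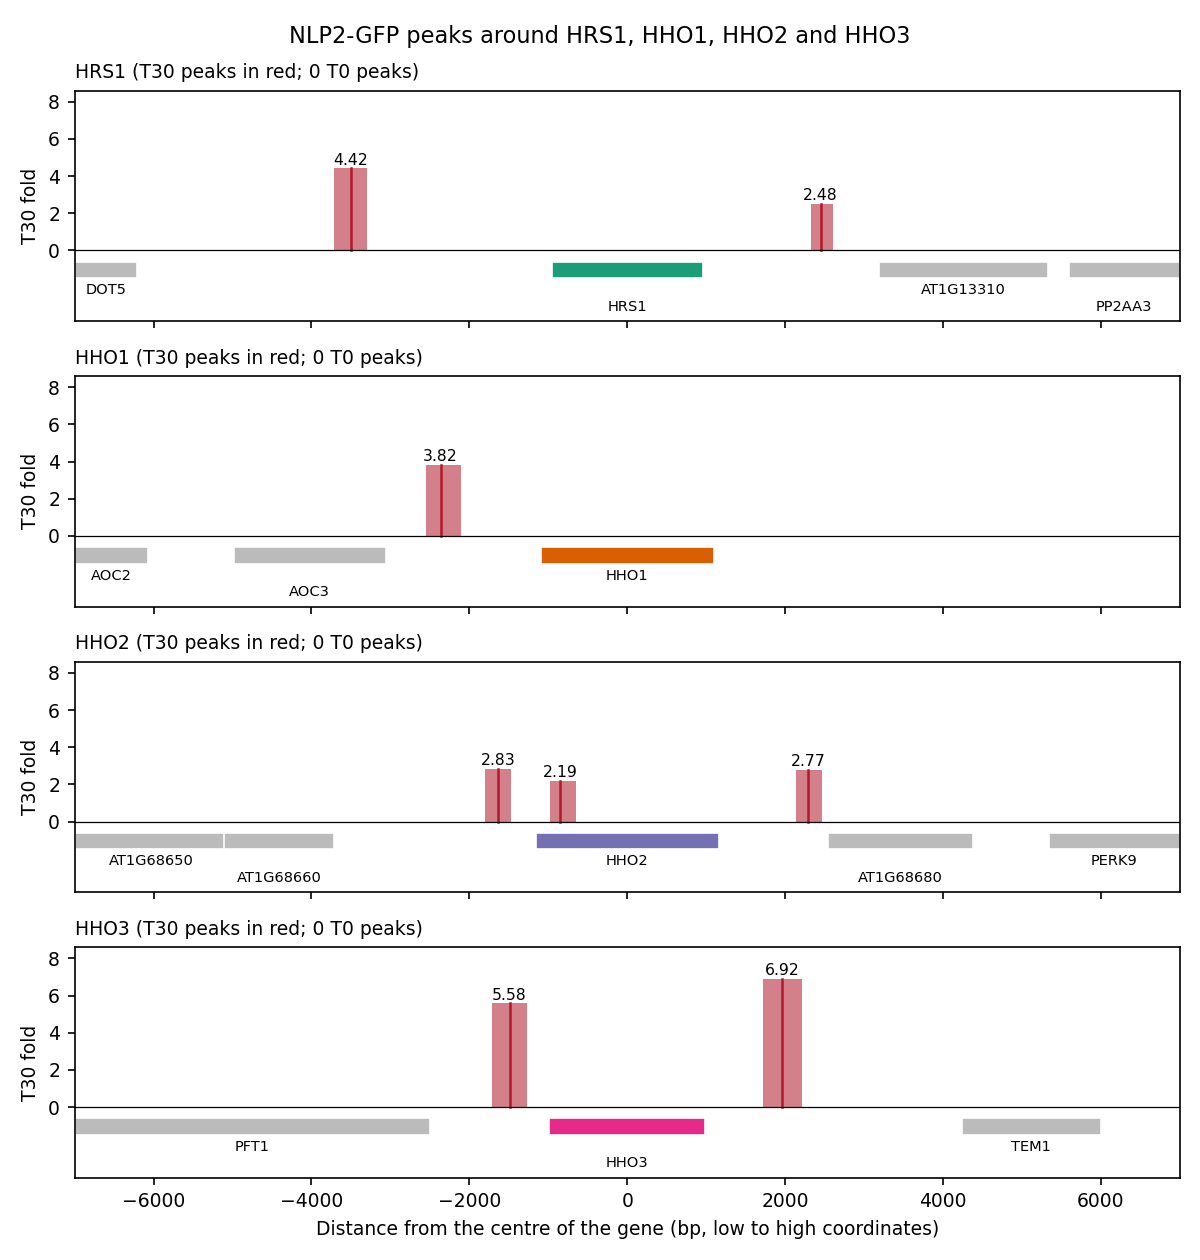
Each panel centres 1 gene, with distance in bp from the gene's centre on the horizontal axis and the authors' T30 fold of each peak as the height of a red block as wide as the peak; the dark line is the summit, the coloured box the gene and the grey boxes its protein-coding neighbours. HRS1, HHO2 and HHO3 have peaks on both sides, HHO1 on one side only, and no T0 peak falls in any panel's 5000 bp window.

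At HHO3 on chromosome 1, the stronger peak ran from 8979031 to 8979533 (positions are on TAIR10, counted from 1), with its summit at 8979282 and a −log10 q of 388. It ranked 27th by fold among the 593 T30 peaks. The second peak ran from 8975599 to 8976051, with its summit at 8975825, a −log10 q of 277 and rank 51. The pair enclosed the gene, and the summits were 3457 bp apart. Each summit lay 500 to 1000 bp outside the gene, and HHO3 was the nearest protein-coding gene to both. The neighbours are PFT1 (AT1G25540), which encodes a Mediator subunit, and TEM1 (AT1G25560), a repressor of flowering. PFT1 lay 1000 to 2000 bp from the weaker peak's summit, and TEM1 lay 2000 to 5000 bp from the stronger one's.

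HRS1, also on chromosome 1, had its stronger peak from 4554116 to 4554534, with its summit at 4554335, a −log10 q of 144 and rank 95. This summit was the farthest from its gene among the 8, at 2000 to 5000 bp. HRS1 was still the nearest gene, with DOT5 (AT1G13290), a zinc-finger gene of vein patterning, in the same distance class on the other side of the peak. The weaker peak ran from 4560167 to 4560436, with its summit at 4560287, a −log10 q of 34.6 and rank 396. It lay 1000 to 2000 bp beyond the opposite end of HRS1 but 500 to 1000 bp from AT1G13310, so the nearer gene was the neighbour. The summits were 5952 bp apart, the widest spacing among the outermost peaks of these genes.

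HHO1, the only one of the 4 genes on chromosome 3, had a peak from 9411601 to 9412037, with its summit at 9411783, a −log10 q of 105 and rank 141. The summit fell between HHO1 and AOC3 (AT3G25780), an allene oxide cyclase gene of jasmonate synthesis. It lay 500 to 1000 bp from AOC3 and 1000 to 2000 bp from HHO1. The gene table gave no strand, so which gene has this peak on its promoter side cannot be told here.

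HHO2 on chromosome 1 had 3 modest peaks of similar fold. The first ran from 25781152 to 25781491, and its summit at 25781321 lay within 500 bp of the gene. It had a fold of 2.83 and a −log10 q of 49.9. The second ran from 25781980 to 25782309 and was the weakest of the 8, at a fold of 2.19 and a −log10 q of 23.1. Its summit at 25782109 was the only one of the 8 inside an annotated gene, and that gene was HHO2 itself. The first and second summits were 788 bp apart, straddling one end of the gene. The third peak, from 25785101 to 25785433, reached a fold of 2.77 and a −log10 q of 47.2. Its summit at 25785255 lay 1000 to 2000 bp from the other end of HHO2 and within 500 bp of AT1G68680, which was therefore the nearer gene. In rank, the HHO2 peaks came 276th, 290th and 527th, so HHO2 had peaks on both sides as HHO3 did, at lower places in the list.

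By their strongest peak the genes ordered as HHO3, HRS1, HHO1 and HHO2. Among the 1485 genes with a T30 summit in the window they ranked 72nd, 288th, 423rd and 764th. Without replicate values, whether neighbours in this order differ beyond their error was not tested. Over the 8 peaks the median fold was 3.32, against 2.75 for the other 585 T30 peaks. Of the 8, 6 lay above the list's median of 2.75, the HHO2 peaks of 2.83 and 2.77 only just. The peaks were 270 to 503 bp wide, with a median of 379.5 bp against 438 bp for the other T30 peaks. Each had its summit near the middle, at 39.1% to 52.3% of its width.

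**Figure D2:**
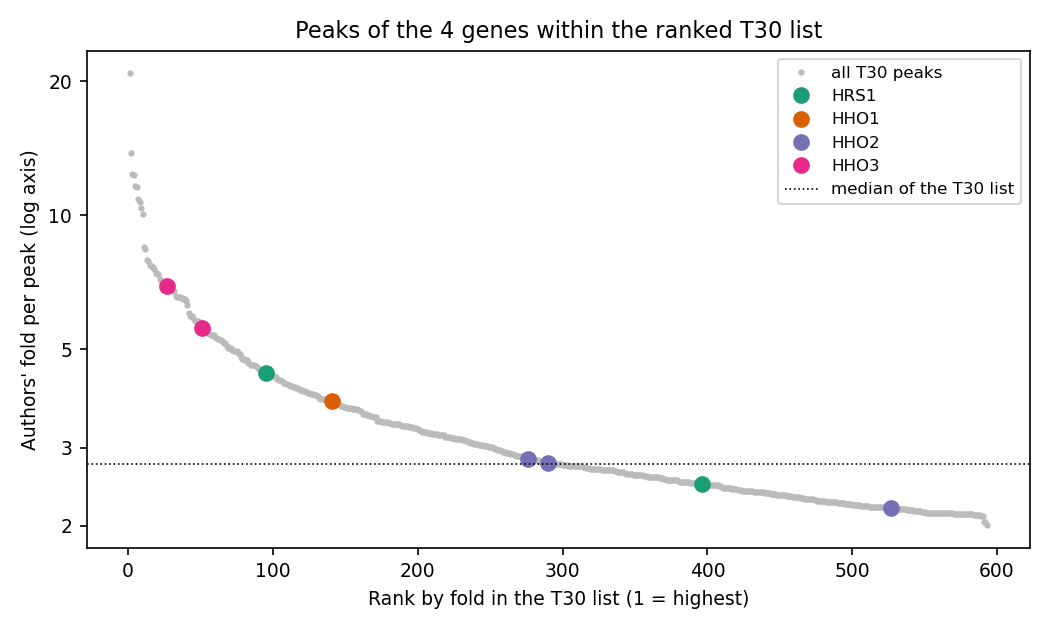
All 593 T30 peaks are ranked by the authors' fold (logarithmic vertical axis), with the 8 peaks of the 4 genes in colour and the list median of 2.75 as a dotted line. The HHO3 peaks sit at ranks 27 and 51, HRS1 spans ranks 95 to 396, and the HHO2 peaks lie near or below the median.

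Peaks on both sides were uncommon in the genome. The comparisons in this paragraph were not planned. They were made with the members' own peaks already seen, so they describe those peaks and give no independent support. Of the 27444 genes, 23 (0.0838%) had T30 summits within 5000 bp on both sides, and HRS1, HHO2 and HHO3 were 3 of them. At least 2 T30 summits were found for 0.445% of genes, which included the same 3 of 4. At least 3 were found for 0.0401%, or 11 genes, which included HHO2 and, through the same 3 peaks, its neighbour AT1G68680. Genes that lie next to each other share peaks, so the 23 are not separate loci: NRT2.1 and NRT2.2, for example, both count. At HRS1 and HHO2 the peak on the high-coordinate side was nearer to a neighbouring gene. With a 1000 bp limit, or with each summit given only to its nearest gene, HHO3 alone of the members kept both sides. The share of all genes with both sides was not computed for those rules. Within the 23, HHO3 had the highest value for the weakest of a gene's peaks, 5.58, followed by AT1G78030 at 5.28 and LBD38 at 4.59. The nitrate reductase gene NIA1 had a higher strongest peak, 10.4, but its weakest had a fold of 2.67. NIA1 had 4 T30 peaks, against 2 each for HHO3, AT1G78030 and LBD38. A gene's lowest fold can only stay or fall as peaks are added.

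**Figure D3:**
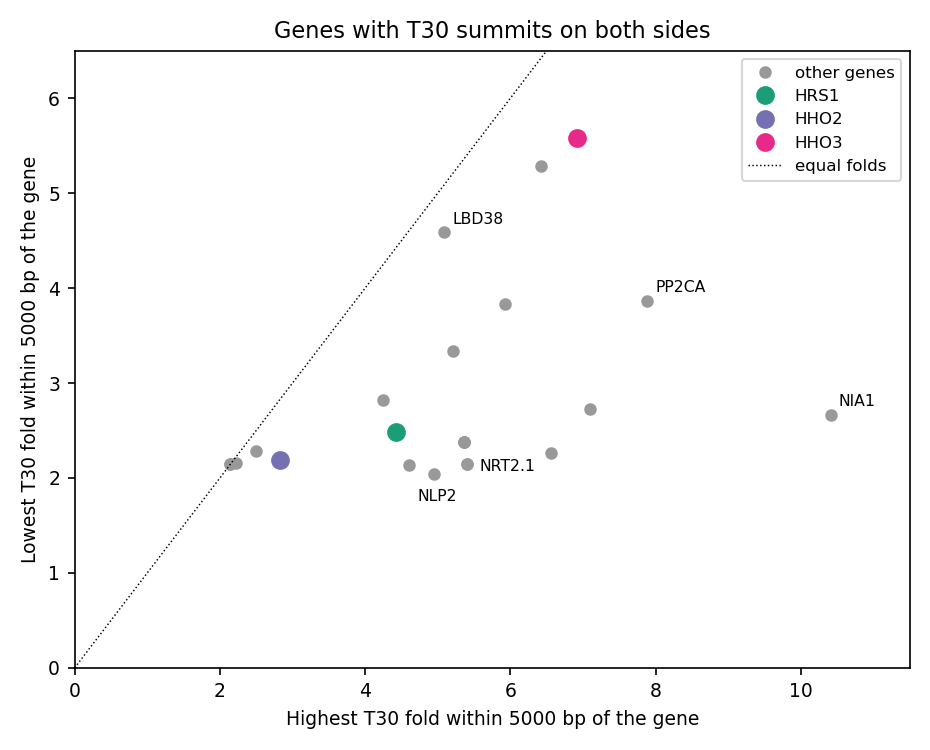
Each point is 1 of the 23 genes with T30 summits on both sides within 5000 bp; the horizontal axis gives its highest and the vertical axis its lowest T30 fold in that window, and the dotted line marks equal folds. HHO3 has the highest position on the vertical axis, HRS1 (lowest fold 2.48) and HHO2 (2.19) lie well below it, and points of neighbours that share their peaks coincide.

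The HRS1 and HHO1 loci resemble each other in gene order. Allene oxide cyclase genes lie on the low-coordinate side of both, AOC4 as the second gene from HRS1 and AOC3 as the first from HHO1. Genes for a scaffold subunit of protein phosphatase 2A lie on the other side, PP2AA3 second from HRS1 and PP2AA2 first from HHO1. The stronger HRS1 peak, 4.42, and the single HHO1 peak, 3.82, were both on the allene oxide cyclase side. DOT5 lay between the HRS1 peak and AOC4, whereas the HHO1 peak was nearer to AOC3 than to HHO1. Without strand, whether the peaks are at the same end of both genes cannot be told. The weaker HRS1 peak, 2.48, was on the phosphatase side, where HHO1 had none. AOC4 had no T30 peak in its own window.

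Nothing was listed at the 4 genes outside T30. The nearest T0 summit to any of the 8 T30 summits was 53.6 kb away, at HRS1, and the farthest of these nearest distances was 504 kb, at HHO1. None of the 8 peaks overlapped an input peak of either time, and no input peak lay within 10000 bp of the genes. The input lists held only 22 peaks at T30 and 87 at T0. The share of all T30 peaks overlapping a T0 or input peak was not computed, so these absences do not set the 8 apart. The lists were called separately, at unknown depth and with different lowest −log10 q values (20.4 at T30 and 16.1 at T0), so a peak missing from the T0 list shows only that none passed there.

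Among the relatives of the 4 genes, none of the other HHO genes, HHO4 (AT2G03500), HHO5 and HHO6, had a T30 peak. With 5.41% of all genes having one, 0 of 3 is close to the background. HHO4, known as EFM for a role in flowering time, had a T0 summit within it, in a peak that ranked 429th of 579 (fold 1.99, −log10 q 17.0).

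The other nitrate regulators were often beside T30 peaks, in 13 of 22 cases against 5.41% of all genes, and 1 of the 22 had a T0 peak, close to the 3.76% of all genes. The strongest peaks belonged to the LOB-domain repressor genes LBD37 (7.92) and LBD39 (7.71) and to NLP3 (7.56). HHO3 at 6.92 came next, just above the BTB-TAZ scaffold gene BT2 at 6.81. BT1 (5.78), AFB3 (5.27), LBD38 (5.08), NLP2 (4.95) and TGA4 (4.90) had folds between those of HHO3 and HRS1. NRG2 (3.66), NAC4 (3.35), TGA1 (3.25) and NLP1 (2.76) lay below HHO1, and NLP4 to NLP9, TCP20, ANR1 and SPL9 had no T30 peak. The T0 peak, of fold 2.38, was at NLP2 itself. The NLP2-GFP construct holds further sequence of that gene, a limit for this peak and for the gene's 3 T30 peaks alike. Both lists of regulators were chosen with earlier results known.

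Genes that HRS1 and the HHO proteins are known to repress had a T30 peak in 2 of 7 cases and a T0 peak in 1, against 5.41% and 3.76% of all genes. NRT2.1 had 3 T30 peaks, the strongest with a fold of 5.40 within 500 bp, so both it and its repressor genes were beside NLP2 peaks in the T30 list. SPX4, which encodes an inhibitor of phosphate starvation signalling, had 1 of 3.39 within 500 bp. SPX1 had none at T30 and a T0 peak of 2.03 at 2000 to 5000 bp. NRT2.4, NRT2.5, SPX2 and the cytokinin hydroxylase gene CYP735A2 had no peak at either time. The phosphate regulators PHR1, PHL1, PHO2 and NLA had 0 of 4 at both times, which is close to the background shares.

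**Figure D4:**
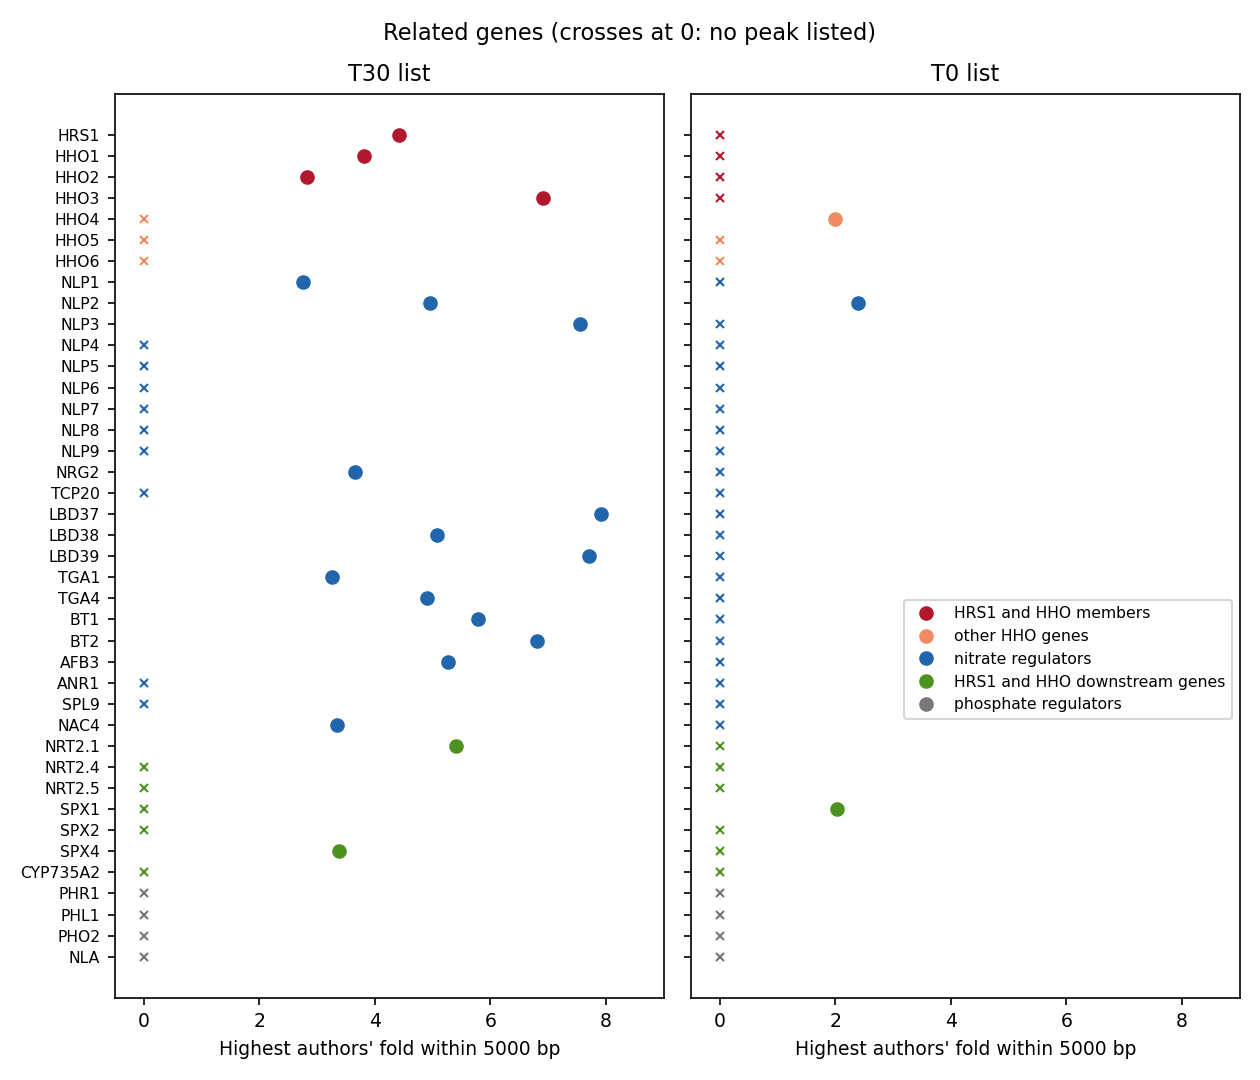
For each gene, the highest fold of any peak with a summit within 5000 bp is shown in the T30 list (left) and the T0 list (right), coloured by gene group; crosses at 0 mark genes with no listed peak. Folds of the panels come from separately called lists and are not comparable between them. The 4 HRS1 and HHO genes have points at T30 and crosses at T0.

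Likeness to other genes was measured as the smallest difference in log2 of the strongest T30 fold among genes with equal numbers of T30 and T0 peaks and no peak in common. It rests on only 2 lists. HHO3 was closest to the calcium transporter gene CAX1 (6.77) and its neighbour AT2G38180, and then AT1G78030 (6.42). HRS1 was closest to AT3G28690 (4.53), AT1G67900 and AT1G67910 (both 4.60). HHO1, with 1241 genes to compare, was closest to the carbonic anhydrase gene BCA4 (3.83) and its neighbours AT1G70400 and AT1G70420, which share that peak. For HHO2 only 4 genes had the same number of peaks and none in common with it, and the closest were NRT2.1 and NRT2.2, which share peaks with each other (5.40), and LBD37 (7.92). All of these had higher folds than HHO2, by at least 0.93 on the log2 scale.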

How the data were processed

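The deposited lists hold peaks of 4 groups: IP at T30, IP at T0, input at T30 and input at T0. Per the submitters' processing notes the tools were Bowtie2 2.3.4.1, SAMtools 1.7 and MACS2 2.1.1, on TAIR10. Per the file headers, each IP peak has the authors' fold (a ratio), −log10 q, a score and a summit offset, and each input peak a fold and −log10 q. The authors' score equals 10 times −log10 q rounded down, so it adds nothing to it. The IP lists' names carry POOLED-IDR, noCM and noINPUT, which their headers do not spell out. The 2 deposited columns of −log10 p were not used here.

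Genes came from a RefSeq table of TAIR10.1 without strand or sequence, on the assumption that nuclear coordinates are those of TAIR10. All 40 listed genes were found by locus code, one code (AFB3) having been corrected after its mismatch with the table was seen. Named genes are the members, the listed genes with peaks, the other HHO genes, genes beside member peaks and the closest 3 per member. Other genes with peaks on both sides, listed genes with no peak, and the AOC and phosphatase neighbours were named after their values were seen. The members and lists were chosen with earlier results of these data known. The counting was tested on simulated data. Computed with Python 3.11.15 and pandas 2.3.3. Sequences and promoter motifs were not analysed here.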

Additional observations from a re-analysis of the deposited data

How the results depend on the processing

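The number of T30 peaks at the 4 genes was 8 and moved most with the distance rule. With a 1000 bp limit it was 4, at 2 of the genes (HHO2 and HHO3). With each summit given only to its nearest gene it was 5, at 3 of the genes, and HHO1 had none. It was 7 with 2000 bp, 8 with 10000 bp and 8 with any base of the peak. At or above the list's median fold it was 6. With 2000 bp, 10000 bp, any base of the peak or the median-fold limit, all 4 genes kept a peak. The shares of all genes were 2.75%, 9.4%, 5.67% and 3% in that order. The common q threshold is the T30 list's own lowest value and so could remove no T30 peak. No T0 peak appeared at the 4 genes with any of the wider or narrower distances, up to 10000 bp. The 5000 bp window held none, so narrower limits could give no other outcome. The nearest T0 summit lay far beyond 10000 bp, which settled the widest limit too. None of their T30 peaks overlapped a T0 peak by 1 bp, so the stricter overlap rules could give no other outcome. The share of all T30 peaks with such an overlap was not computed. Settings for related genes and input peaks were chosen after seeing the data: the nitrate regulators had 9 of 22 with 1000 bp, against 1.91% of all genes, and 10 with the nearest gene, against 1.71%. The phosphate regulators had 1 of 4 with 10000 bp, against 9.4% of all genes. No paired analysis was possible because each list pools its replicates and holds no value per replicate, and for the same cause no replicate could be left out. Depth is unknown, so a peak absent from a list cannot be told from one below its cut-off.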
